A study of Homo sapiens with 16 samples.

Results

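The genes described are the glucocorticoid receptor gene NR3C1 and 8 genes known as targets of steroid hormones: FKBP5, TSC22D3, PER1, SGK1, ZBTB16, KLF9, ERRFI1 and DUSP1. They were taken from the table by gene symbol, with no threshold on a measured value. They are 9 of the 60642 genes in the table of expression values. The values come from bulk RNA sequencing of LNCaP, a single established line of human prostate cancer cells that depends on androgen for growth. Cells spent 72 h in 5% fetal bovine serum and then 48 h in 5% charcoal-stripped serum, which is poor in steroids, before a treatment of 48 h. The VEH group received the solvents ethanol and DMSO, and the DHT group received 10 nM of the androgen dihydrotestosterone (DHT) with solvent. Bicalutamide (BIC), enzalutamide (ENZ) or apalutamide (APA), antiandrogens that block androgen action, were given at 10 µM either without DHT (BIC.VEH, ENZ.VEH, APA.VEH) or with 10 nM DHT (BIC.DHT, ENZ.DHT, APA.DHT). Each of the 8 groups held 2 biological replicates, and 16 libraries were measured in all. Both replicates of a group came from the same line, so the p-values measure the spread between cultures of LNCaP and not between tumours. No group received a glucocorticoid.

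The glucocorticoid receptor is a nuclear receptor that waits in the cytoplasm in a complex with HSP90 and its partner proteins, binds cortisol or a synthetic glucocorticoid, and then acts on DNA as a transcription factor. Androgens and glucocorticoids act through related receptors that recognise the same type of DNA element, so a part of their target genes is shared. FKBP5, TSC22D3 (also called GILZ), PER1, SGK1, ZBTB16, KLF9, ERRFI1 and DUSP1 are widely used as readouts of glucocorticoid action. In prostate cancer cells, the glucocorticoid receptor is known as a receptor that can take over some androgen targets when androgen action is blocked.

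Values are in TPM, a unit of transcript abundance that is adjusted for gene length and scaled to a fixed total in each library. TPM keeps no read depth. A yield of about 40 M read pairs is given for each library in the labels, and the precision of each value was judged from the spread between replicates. Mitochondrial genes held 14.7% to 22.3% of a library, and the correlation between the replicates of a group across genes ran from 0.964 to 0.982. The 5 luminal prostate markers (KRT8, KRT18, FOLH1, KLK3 and 1 other) summed to between 2238 and 6825 TPM in every library, so markers of the labelled cell type were present throughout. The 3 immune markers summed to at most 0.27 TPM with CD3E at 0 in every library, and the 2 endothelial markers to at most 0.03 TPM. The 3 basal markers summed to at most 1.75 TPM. The 3 stromal markers summed to 11.44 to 32.85 TPM, of which COL1A1 made up 11.44 to 32.55 TPM while DCN did not pass 0.07 TPM. In bulk libraries, fewer cells of a type and less RNA per cell cannot be told apart.

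NR3C1 itself (chromosome 5, 143277931 to 143435512 in the RefSeq annotation of GRCh38.p14) was close to 0 in every library. It was listed at 0.08 and 0.09 TPM in VEH and at 0.06 and 0.03 TPM in DHT. With BIC it was at 0.14 and 0.13 TPM without DHT and at 0.25 and 0.09 TPM with DHT. Thus no library of these groups held the receptor transcript above a small fraction of 1 TPM.

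With ENZ, NR3C1 was at 0.26 and 0.21 TPM without DHT and at 0.11 in both replicates with DHT. With APA it was at 0.24 and 0.08 TPM without DHT and again at 0.11 TPM in both replicates with DHT. The highest of the 16 libraries, ENZ.VEH replicate 1, reached 0.26 TPM, and the median was 0.11 TPM. In order of the group means, ENZ.VEH (0.235 ± 0.0354 TPM, SD, n = 2) was followed by BIC.DHT, APA.VEH and BIC.VEH, each of these 4 overlapping its neighbour among them. ENZ.DHT and APA.DHT followed with equal values, and VEH (0.085 ± 0.00707 TPM) and DHT (0.045 ± 0.0212 TPM) came last and did not overlap each other.

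A gene was tested only where it reached 1 TPM in at least 2 libraries, and NR3C1 did so in 0 of 16. When this filter was removed, no comparison called NR3C1. The lowest p-value was that of ENZ.VEH against VEH, where the log2 fold change was 0.19 (SE 0.0692, p 0.0228 and adjusted p 1 by limma). Fold changes are differences of log2(TPM + 1) throughout, a scale on which genes far below 1 TPM can show almost no change.

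Of the other steroid receptor genes, NR3C2, which encodes the mineralocorticoid receptor and also binds cortisol, was measured at 2.25 to 6.66 TPM. It stood at 4.4 and 5.41 TPM in VEH and at 2.88 and 4.92 TPM in DHT, ranges that overlap, and it was not called. The progesterone receptor gene PGR did not exceed 0.13 TPM, and the oestrogen receptor genes ESR1 and ESR2 did not exceed 0.14 and 0.06 TPM. Of the enzymes that interconvert cortisol and cortisone, HSD11B1, which makes cortisol, was listed at 0 in every library. HSD11B2, which inactivates cortisol, was at 48.42 to 91.39 TPM, and H6PD, which feeds HSD11B1 with cofactor, was at 11.15 to 22.31 TPM. Of these 3 genes, 2 were tested in DHT against VEH and 0 were called, also at an unadjusted p below 0.05 or with the replicate number as a block. Of all genes, 10.3% were called, and 27.4% with the block.

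The 8 target genes were all measured above 1 TPM in all 16 libraries and were all tested. Their medians over the libraries ran from 3.545 TPM for SGK1 to 22.6 TPM for DUSP1. FKBP5 reached 92.76 TPM, and the highest value of any other target was 34.68 TPM, in TSC22D3. The plot of TPM by group shows each library.

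**Figure D1:**
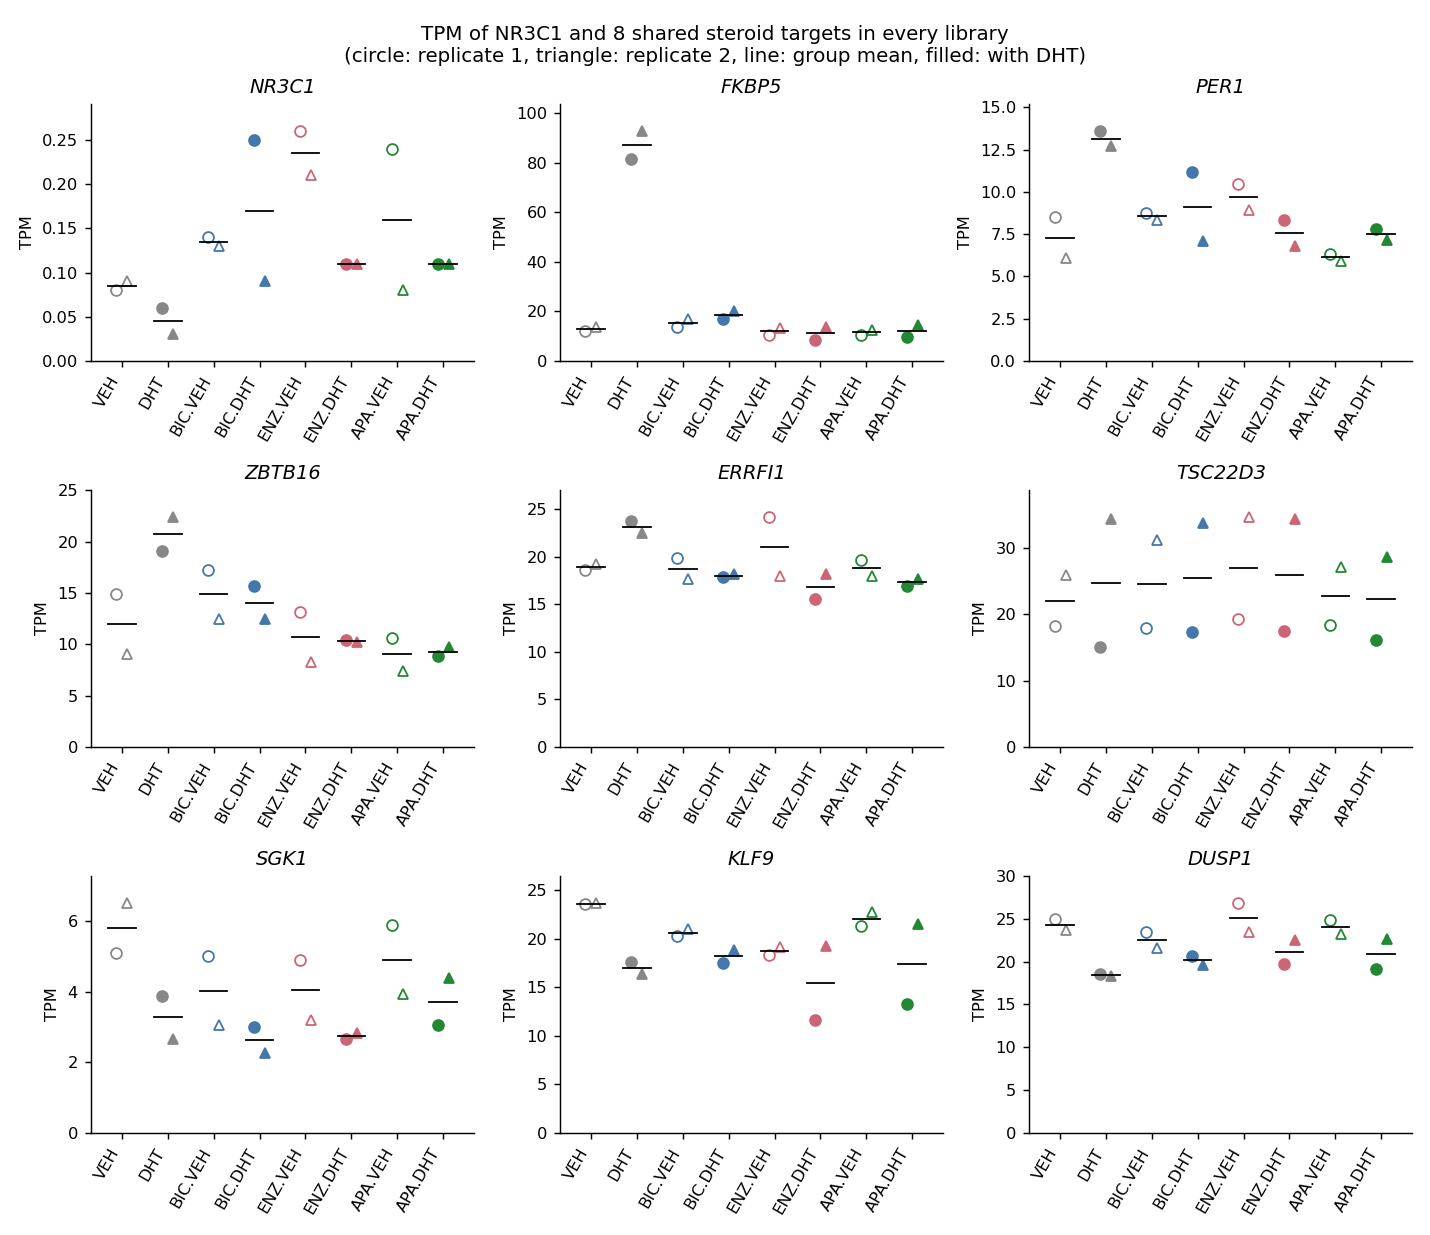
TPM of the 9 genes in each library, with 1 panel per gene, the 8 groups along the horizontal axis and TPM on the vertical axis, which differs between panels. FKBP5 stands at 81.43 and 92.76 TPM in DHT against 8.56 to 20.09 TPM in the other groups, NR3C1 stays at or below 0.26 TPM, and both TSC22D3 replicates stand apart in every group.

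The sequences just before the transcription starts are shown for the genes whose response is described next, because the DNA element that the receptors share can be looked for there. Windows of 300 bases, 250 before and 50 after each RefSeq start of GRCh38.p14, were searched on both strands. There were 20 such windows for 8 of the 9 genes. Capitals mark the half-site AGAACA, the E-box CACGTG that clock proteins bind, and the cAMP response element TGACGTCA. For FKBP5, the stretch up to the first start is chr6:35728578-35728783 on the minus strand and the stretch before the second start is chr6:35688916-35689165 on the minus strand. For PER1 it is chr17:8152405-8152654 and for DUSP1 chr5:172771196-172771445, both on the minus strand. The fifth sequence is a short stretch of the promoter of KLK3, a known androgen target, at chr19:50854745-50854759 on the plus strand, 170 bases before the start.
FKBP5, first start: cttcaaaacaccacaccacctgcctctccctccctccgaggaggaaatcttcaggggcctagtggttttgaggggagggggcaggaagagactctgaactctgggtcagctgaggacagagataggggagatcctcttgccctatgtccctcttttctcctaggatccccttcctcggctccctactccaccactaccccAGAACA
FKBP5, second start: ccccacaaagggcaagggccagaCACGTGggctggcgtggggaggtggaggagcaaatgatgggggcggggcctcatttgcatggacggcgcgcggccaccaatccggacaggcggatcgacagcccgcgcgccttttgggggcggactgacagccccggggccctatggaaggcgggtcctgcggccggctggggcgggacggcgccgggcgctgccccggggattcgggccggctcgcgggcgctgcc
PER1: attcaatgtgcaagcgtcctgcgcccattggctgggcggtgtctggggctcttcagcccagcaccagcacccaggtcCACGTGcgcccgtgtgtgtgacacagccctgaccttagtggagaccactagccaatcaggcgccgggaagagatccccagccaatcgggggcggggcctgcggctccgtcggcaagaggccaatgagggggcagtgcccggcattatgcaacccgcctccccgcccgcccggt
DUSP1: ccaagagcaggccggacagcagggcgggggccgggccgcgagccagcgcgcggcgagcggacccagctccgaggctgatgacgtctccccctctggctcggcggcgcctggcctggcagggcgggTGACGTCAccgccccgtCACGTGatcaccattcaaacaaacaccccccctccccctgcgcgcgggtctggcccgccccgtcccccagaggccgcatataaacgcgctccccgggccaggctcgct
KLK3: AGAACAgcaagtgct
The half-site AGAACA was in 2 of the 20 windows, where it began at transcribed base 1 of a FKBP5 start and at base 6 of a SGK1 start. Of all 35116 promoter windows, 14.8% held it. The full palindrome, AGAACA and TGTTCT with 3 free bases between them, was in 0 of the 20 windows and in 1 of 35116 (0.00285%), which says only that these letters are not in these windows. The E-box was in 3 of the 20 windows, 227 bases before the second start of FKBP5, 173 before the start of PER1 and 108 before that of DUSP1, and 7.26% of all windows held it. The cAMP response element was 125 bases before the start of DUSP1, and 1.85% of all windows held it. These matches are descriptions of the letters and carry no measurement of binding.

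The comparison of DHT with VEH asks which of the shared steroid targets responded to androgen when the glucocorticoid receptor transcript was near 0. The 10 nM DHT treatment was seen in KLK3, which encodes prostate-specific antigen and went from 24.01 and 53.04 TPM in VEH to 2422.36 and 4102.26 TPM in DHT (log2 fold change 6.42 with an SE of 0.643, adjusted p 0.00016 by limma). Among the 8 tested targets, FKBP5 and PER1 rose and none fell past the threshold. Of all 16636 genes tested, 10.3% were called, 3.63% higher and 6.64% lower. The median log2 fold change was 0.173 over the 8 targets and -0.098 over all genes.

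FKBP5 (chromosome 6, 35573590 to 35728583) encodes the co-chaperone FKBP51, which binds HSP90 in steroid receptor complexes and lowers the affinity of the glucocorticoid receptor for its hormone. It was at 11.99 and 13.5 TPM in VEH and at 81.43 and 92.76 TPM in DHT. Both DHT libraries lay far above both VEH libraries, and the ratio of the means was 6.83. The log2 fold change of FKBP5 was 2.68 with an SE of 0.238 (adjusted p 7.4e-05 by limma), and within replicate number it was 2.67 and 2.69. The FKBP5 locus overlaps 4 further genes of the annotation, and use of strand in the counting is not given in the sources used here.

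PER1 (chromosome 17, 8140472 to 8152404) encodes a repressor of the circadian clock that glucocorticoids induce rapidly. It was at 8.5 and 6.1 TPM in VEH and at 13.59 and 12.7 TPM in DHT. The groups did not overlap, the ratio of the means was 1.80 and the log2 fold change was 0.78 with an SE of 0.207 (adjusted p 0.0346 by limma). The call was lost when any 1 of the 4 libraries was left out, which leaves 1 library in a group. The log2 fold change was then 0.99 without VEH replicate 1 and 0.57 without VEH replicate 2. It was 0.74 without DHT replicate 1 and 0.83 without DHT replicate 2. A fit of DHT and VEH alone gave an adjusted p of 0.0824, and a fit without the filter on low values gave 0.0606. The fit with replicate number as a block kept the call (adjusted p 0.00228). Within replicate number the log2 fold change was 0.62 and 0.95.

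ZBTB16 (chromosome 11, 114059711 to 114256770) encodes the transcriptional repressor PLZF. It was at 14.89 and 9.02 TPM in VEH and at 19.05 and 22.39 TPM in DHT, which do not overlap. The log2 fold change was 0.78 (SE 0.272), the same size as that of PER1, but with a wider spread it was not called (adjusted p 0.0971 by limma). The fit with replicate number as a block called it (adjusted p 0.0195), and so did median-ratio scaling, where the value was 0.90 (adjusted p 0.0434). Leaving out VEH replicate 1 gave 1.11, and leaving out VEH replicate 2 gave 0.45.

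ERRFI1 (chromosome 1, 8011727 to 8026309) encodes a feedback inhibitor of the EGF receptor. Its VEH libraries held 18.57 and 19.25 TPM and its DHT libraries 23.71 and 22.54 TPM (log2 fold change 0.28, SE 0.147, adjusted p 0.27). DUSP1 (chromosome 5, 172768096 to 172771195) encodes a phosphatase that inactivates MAP kinases and is a mediator of the anti-inflammatory action of glucocorticoids. It stood at 24.95 and 23.7 TPM in VEH and at 18.61 and 18.34 TPM in DHT. Its log2 fold change of -0.38 (SE 0.128, adjusted p 0.0886) passed only in the blocked fit (adjusted p 0.0311). Thus the libraries of both genes separated without a call, ERRFI1 with the higher values in DHT and DUSP1 with the lower.

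KLF9 (chromosome 9, 70384604 to 70414657) encodes a zinc finger repressor induced by glucocorticoids and thyroid hormone. It was at 23.54 and 23.66 TPM in VEH and at 17.63 and 16.33 TPM in DHT (log2 fold change -0.45, SE 0.226, adjusted p 0.241). SGK1 (chromosome 6, 134169256 to 134318112) encodes a serine/threonine kinase that regulates sodium transport and cell survival. It was at 5.1 and 6.51 TPM in VEH and at 3.89 and 2.67 TPM in DHT (log2 fold change -0.68, SE 0.275, adjusted p 0.152). Neither gene overlapped between VEH and DHT, and neither was called, with or without the replicate block.

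TSC22D3 (chromosome X, 107713221 to 107775988) encodes a leucine zipper protein that carries part of the anti-inflammatory action of glucocorticoids. It was at 18.17 and 25.89 TPM in VEH and at 15.03 and 34.35 TPM in DHT. The DHT values spanned those of VEH, and the log2 fold change was 0.07 (SE 0.503, adjusted p 0.958, 95% interval -1.04 to 1.17). Within replicate number the difference was -0.26 and 0.39, of opposite sign, and with the replicate number as a block the interval was -0.25 to 0.39 (SE 0.144, adjusted p 0.768). TSC22D3 was not called in either fit, and replicate 2 held the higher value in both groups.

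Across the 8 targets, the libraries of DHT and VEH did not overlap for 7, against 56.5% of all genes tested. With the replicate number as a block, 4 of the 8 were called, FKBP5, PER1 and ZBTB16 higher and DUSP1 lower, while 27.4% of all genes were called in that fit.

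The comparison of each antagonist plus DHT with DHT alone asks how far the androgen response of these genes was blocked. The check gene KLK3 was at 444.61 and 844.62 TPM in BIC.DHT, 114.86 and 295.82 TPM in ENZ.DHT and 90.35 and 339.82 TPM in APA.DHT. All of these lay above its VEH libraries. It was called lower with ENZ and APA, and with BIC only in the blocked fit. With BIC and no DHT it was at 205.68 and 358.12 TPM. The 3 comparisons share the DHT libraries, so a high or low value in them enters all of them. FKBP5 fell with each antagonist. PER1 fell with ENZ and ZBTB16 fell with APA, and the other 5 targets were not called with any antagonist. With BIC, 1 of 8 targets was called lower, while of all genes 3.13% were called and 1.68% were lower. With ENZ, 2 of 8 were lower, against 9.65% called and 4.91% lower, and with APA 2 of 8, against 8.36% called and 4.11% lower. The median log2 fold changes of the 8 targets were -0.287, -0.306 and -0.238 for BIC, ENZ and APA, and those of all genes were 0.00251, -0.0137 and 0.

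FKBP5 was at 16.84 and 20.09 TPM in BIC.DHT, 8.56 and 13.59 TPM in ENZ.DHT and 9.47 and 14.35 TPM in APA.DHT. All 6 libraries lay far below the DHT libraries. The values with ENZ and APA spanned those of VEH, and both values with BIC lay above both VEH values. The log2 fold change was -2.18 for BIC (adjusted p 0.000697), -2.90 for ENZ (adjusted p 5.5e-05) and -2.79 for APA (adjusted p 7.63e-05, SE 0.238 for each, limma). It was called in every alternative run for these 3 comparisons.

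PER1 was at 11.19 and 7.07 TPM in BIC.DHT, 8.36 and 6.79 TPM in ENZ.DHT and 7.81 and 7.16 TPM in APA.DHT. None of these overlapped the DHT libraries. The log2 fold change was -0.51 for BIC (adjusted p 0.261), -0.73 for ENZ (adjusted p 0.0492) and -0.74 for APA (adjusted p 0.0508, SE 0.207 for each, limma). The ENZ and APA values lay on opposite sides of the threshold with almost the same size. The call with ENZ was lost without any 1 of its 4 libraries, where leaving out DHT replicate 1 gave an adjusted p of 0.18, DHT replicate 2 gave 0.161, ENZ.DHT replicate 1 gave 0.104 and ENZ.DHT replicate 2 gave 0.138. It was also lost with median-ratio scaling (adjusted p 0.0526), without the filter on low values (0.0846) and in a fit of the 2 groups alone (0.196). PER1 with APA was called with median-ratio scaling (adjusted p 0.0488) and with a pseudocount of 0.1 (0.0493). The value for BIC was -0.21 without BIC.DHT replicate 2 and -0.81 without BIC.DHT replicate 1. The blocked fit called PER1 lower for BIC (adjusted p 0.0367), for ENZ (adjusted p 0.00344) and for APA (adjusted p 0.00343).

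ZBTB16 was at 15.65 and 12.43 TPM in BIC.DHT, 10.39 and 10.22 TPM in ENZ.DHT and 8.83 and 9.71 TPM in APA.DHT. All of these lay below the DHT libraries at 19.05 and 22.39 TPM. The log2 fold change was -0.53 for BIC (adjusted p 0.395), -0.94 for ENZ (adjusted p 0.0528) and -1.08 for APA (adjusted p 0.0333, SE 0.272 for each, limma). The call with APA was lost without any 1 of its 4 libraries, where leaving out DHT replicate 1 gave an adjusted p of 0.0962, DHT replicate 2 gave 0.192, APA.DHT replicate 1 gave 0.137 and APA.DHT replicate 2 gave 0.0661. It was also lost without the filter on low values (adjusted p 0.0673) and in a fit of the 2 groups alone (0.104). The blocked fit kept the call with APA (adjusted p 0.00396). ZBTB16 with ENZ was called in the blocked fit (adjusted p 0.00769) and with median-ratio scaling (0.0368).

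ERRFI1 was at 17.84 and 18.17 TPM in BIC.DHT, 15.53 and 18.19 TPM in ENZ.DHT and 16.96 and 17.7 TPM in APA.DHT. Every one of these was below the DHT libraries, and log2 fold changes of -0.34, -0.44 and -0.40 (adjusted p 0.296, 0.0881 and 0.125) were not called. The blocked fit called ERRFI1 lower for ENZ (adjusted p 0.0304) and for APA (adjusted p 0.0476). DUSP1 was at 20.7 and 19.6 TPM in BIC.DHT, 19.76 and 22.56 TPM in ENZ.DHT and 19.19 and 22.63 TPM in APA.DHT. All of these were above the DHT libraries, and the log2 fold changes of 0.12, 0.18 and 0.17 (adjusted p 0.743, 0.386 and 0.452) were not called.

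SGK1 was at 3.01 and 2.25 TPM in BIC.DHT, 2.67 and 2.84 TPM in ENZ.DHT and 3.04 and 4.4 TPM in APA.DHT, which overlapped DHT at 3.89 and 2.67 TPM. KLF9 was at 17.53 and 18.8 TPM in BIC.DHT, 11.62 and 19.26 TPM in ENZ.DHT and 13.31 and 21.47 TPM in APA.DHT, which also overlapped DHT. TSC22D3 was at 17.31 and 33.75 TPM, 17.48 and 34.36 TPM, and 16.09 and 28.7 TPM in the same order of groups and overlapped DHT as well. None of these 3 genes was called with any antagonist, and the log2 fold changes ran from -0.23 to 0.14.

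The libraries of antagonist plus DHT and of DHT alone did not overlap for 5 of the 8 targets with each antagonist, namely FKBP5, PER1, ZBTB16, ERRFI1 and DUSP1. Of all genes, 47% did not overlap with BIC, 50.9% with ENZ and 47.9% with APA. The blocked fit called 2 targets with BIC, 4 with ENZ and 4 with APA, while of all genes 13.3%, 29.2% and 27.3% were called. The plot of log2 fold changes sets the responses of each gene side by side.

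**Figure D2:**
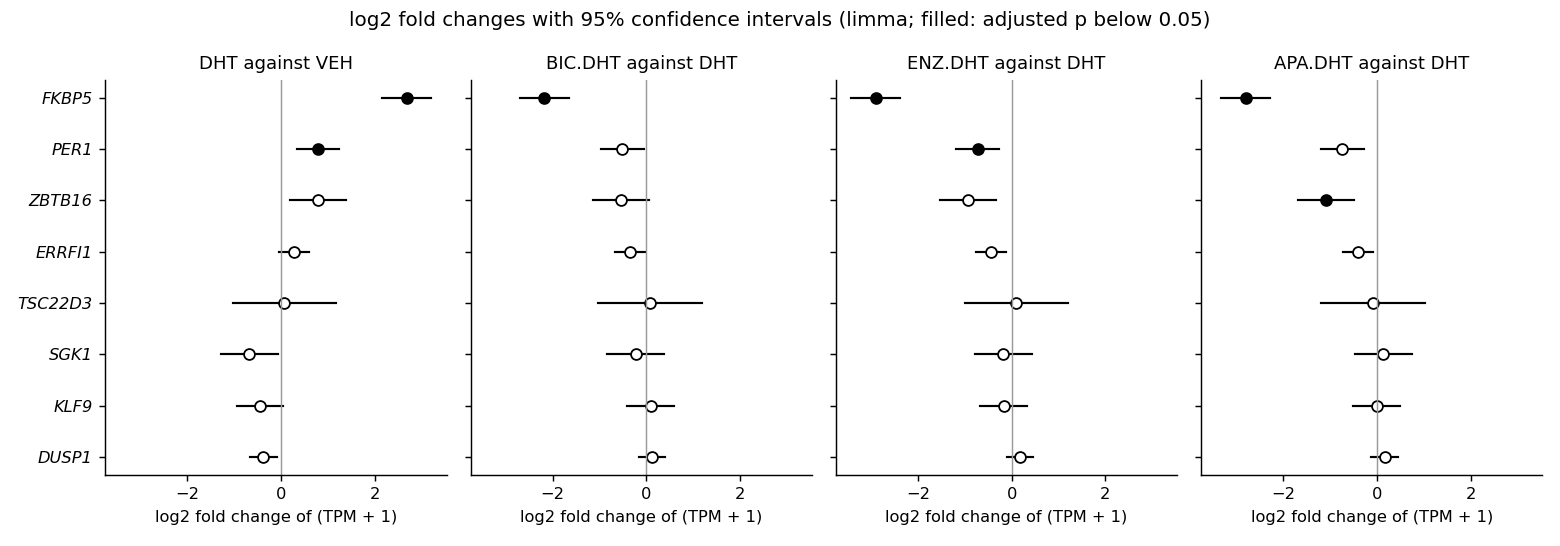
Log2 fold change of (TPM + 1) with its 95% interval for the 8 tested genes in DHT against VEH and in each antagonist plus DHT against DHT alone. FKBP5 lies at 2.68 with DHT and between -2.18 and -2.90 with the antagonists, and the intervals of TSC22D3 span 0 in all 4 comparisons.

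Given without DHT, the antagonists were compared with VEH. No target was called, with 0 of 8 for BIC, ENZ and APA, and 0 of 8 also at an unadjusted limma p below 0.05 or with the replicate block. Of all genes, 0%, 0% and 0.00601% were called. FKBP5 was at 13.84 and 16.94 TPM with BIC, 10.48 and 13.31 TPM with ENZ and 10.5 and 12.65 TPM with APA, against 11.99 and 13.5 TPM in VEH. Thus BIC alone had the higher values and did not overlap VEH, and ENZ and APA overlapped it.

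PER1 without DHT was at 8.78 and 8.36 TPM with BIC, 10.46 and 8.94 TPM with ENZ and 6.32 and 5.93 TPM with APA. ZBTB16 was at 17.27 and 12.47 TPM, 13.17 and 8.3 TPM, and 10.65 and 7.36 TPM in the same order. Both genes had their lowest means with APA, and only PER1 with ENZ did not overlap VEH. SGK1 was at 5.01 and 3.04 TPM with BIC, 4.91 and 3.2 TPM with ENZ and 5.89 and 3.92 TPM with APA. KLF9 was at 20.25 and 20.99 TPM with BIC, 18.32 and 19.15 TPM with ENZ and 21.3 and 22.73 TPM with APA, each below VEH at 23.54 and 23.66 TPM. ERRFI1 ranged from 17.61 to 24.16 TPM and DUSP1 from 21.56 to 26.86 TPM over the 6 libraries, and TSC22D3 from 18.01 to 34.68 TPM.

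Within each antagonist, DHT was compared with its solvent, and the test of the interaction asked whether the DHT effect differed from that without antagonist. No target was called for DHT within BIC, ENZ or APA, with 0 of 8 in each, and 0 of 8 also at an unadjusted limma p below 0.05 or with the replicate block. Of all genes, 0%, 0.00601% and 0.00601% were called. For FKBP5 the log2 fold change of DHT was 0.25 within BIC (95% interval -0.27 to 0.77), -0.12 within ENZ (-0.64 to 0.40) and 0.02 within APA (-0.51 to 0.54). The interval of each lay below the 2.68 seen without antagonist. In ENZ.DHT against ENZ.VEH the median over all genes was itself shifted by -0.126, and with median-ratio scaling the FKBP5 value was 0.01.

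The interaction was called for FKBP5 with each antagonist, 1 of 8 targets in each, while 0.667%, 1.05% and 0.805% of all genes had an interaction called lower for BIC, ENZ and APA. The interaction of FKBP5 was -2.43 for BIC (SE 0.336, limma adjusted p 0.00614), -2.80 for ENZ (adjusted p 0.0021) and -2.66 for APA (adjusted p 0.00287) on the log2 scale. For PER1 the interaction with ENZ was -1.11 (SE 0.292, adjusted p 0.0997) and passed in the blocked fit (adjusted p 0.00683), where 9.91% of all genes were called. The PER1 libraries went from 10.46 and 8.94 TPM in ENZ.VEH to 8.36 and 6.79 TPM in ENZ.DHT, the opposite direction to VEH and DHT.

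ENZ and APA are close structural analogs that share a thiohydantoin core, and BIC is an older compound without that core. The 3 drugs were compared pairwise at the same dose of 10 µM and the same 48 h, with DHT and without, giving 6 comparisons. In none of them was a target called. Of all genes, 0.00601% were called in ENZ.DHT against BIC.DHT, 0% in APA.DHT against BIC.DHT and 0.00601% in APA.DHT against ENZ.DHT. Without DHT, 0%, 0.012% and 0.00601% were called in the same order of pairs. With the replicate block 0 targets were called in all 6. The share of all genes at an unadjusted p below 0.05 was not computed. The unadjusted p-values below are therefore given for single genes only.

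FKBP5 was lower with ENZ plus DHT than with BIC plus DHT in both replicates, with a log2 difference of -0.72 (95% interval -1.24 to -0.19, limma p 0.0116, adjusted p 0.93). With APA plus DHT it was lower than with BIC plus DHT by a difference of -0.61 (95% interval -1.14 to -0.09, p 0.0252, adjusted p 1). Leaving out 1 library moved the ENZ difference between -0.41 (ENZ.DHT replicate 1 left out) and -1.02 (replicate 2 left out), and the APA difference between -0.34 (APA.DHT replicate 1 left out) and -0.89 (replicate 2 left out). Neither passed the adjustment over all genes. The FKBP5 libraries with BIC did not overlap those with ENZ or APA. With the replicate block the 95% interval was -0.99 to -0.44 for ENZ (limma adjusted p 0.0818). For APA it was -0.89 to -0.34 (adjusted p 0.146), and neither was called in that fit. Between the analogs ENZ and APA the FKBP5 difference was 0.10 (95% interval -0.42 to 0.62, and -0.17 to 0.38 with the replicate block), an interval that leaves room for a difference in either direction.

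For ZBTB16 the difference was -0.40 for ENZ plus DHT against BIC plus DHT (95% interval -1 to 0.19). It was -0.54 for APA plus DHT against BIC plus DHT (-1.14 to 0.05) and -0.14 for APA against ENZ (-0.74 to 0.46). With the replicate block the intervals were -0.87 to 0.06, -1.01 to -0.08 and -0.61 to 0.33 in the same order, and none was called. Without DHT, the lowest unadjusted p-values were those of ZBTB16 in APA.VEH against BIC.VEH, with a difference of -0.67 (95% interval -1.27 to -0.07, p 0.0313, adjusted p 1), and of PER1 in APA.VEH against ENZ.VEH, with a difference of -0.58 (-1.04 to -0.13, p 0.0164, adjusted p 1). The intervals do not show that the compounds act alike on these genes.

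Several of these genes differed between replicate numbers in the same direction in all groups. TSC22D3 was at 15.03 to 19.29 TPM in the 8 libraries of replicate 1 and at 25.89 to 34.68 TPM in the 8 of replicate 2, and these ranges do not overlap. Its median log2 difference of replicate 2 from replicate 1 was 0.81. FKBP5 was also higher in replicate 2 in 8 of 8 groups (median log2 difference 0.26), and PER1 was lower in replicate 2 in 8 of 8 (median -0.16). The largest differences of FKBP5 were in ENZ.DHT (0.61) and APA.DHT (0.55). Of all tested genes, 17.8% were higher in replicate 2 in 8 of 8 groups and 10.4% were lower in 8 of 8.

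The remaining genes had mixed directions. KLF9 was higher in replicate 2 in 7 of 8 groups, with the 2 largest differences in ENZ.DHT and APA.DHT. ZBTB16 and DUSP1 were lower in replicate 2 in 6 of 8 groups, SGK1 in 5 of 8 and ERRFI1 in 4 of 8. What differed between the replicate cultures is not given in the sources used here.

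**Figure D3:**
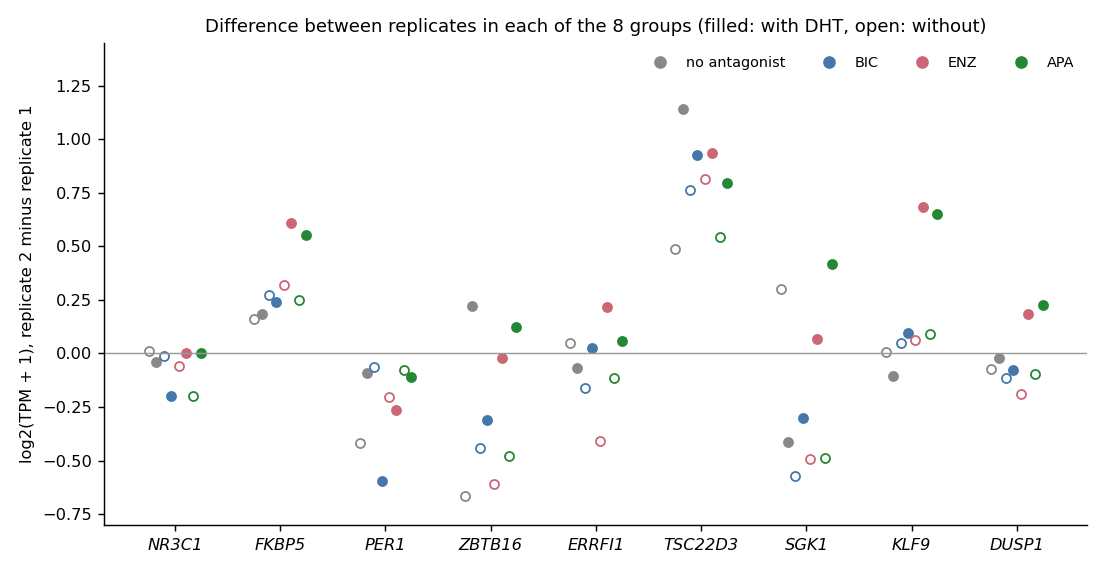
Difference of log2(TPM + 1), replicate 2 minus replicate 1, in each of the 8 groups (1 point per group) for the 9 genes. All 8 points of TSC22D3 and FKBP5 lie above 0 and all 8 points of PER1 lie below 0.

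Other genes of the same pathways were counted from lists. Of 34 other genes known to be induced by glucocorticoids, 28 were tested in DHT against VEH, where 2 rose and 1 fell. ELL2, an elongation factor of RNA polymerase II, went from 12.62 and 13.04 TPM in VEH to 44.18 and 57.55 TPM in DHT (log2 fold change 1.90 with an SE of 0.218, adjusted p 0.000457). KLF15, a transcription factor of amino acid and glucose metabolism, went from 3.93 and 4.28 TPM to 6.13 and 7.68 TPM (0.62, adjusted p 0.0289). TXNIP, which binds thioredoxin and restrains glucose uptake, fell from 183.8 and 184.07 TPM to 86.78 and 89.45 TPM (-1.05, adjusted p 0.00321). The 25 others were not called, and the median log2 fold change of the list was -0.0203 against -0.098 over all genes. Of all genes, 3.63% rose and 6.64% fell. In the blocked fit, 4 of the 28 were called higher and 4 lower, together 8, against 27.4% of all genes.

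With each antagonist plus DHT, ELL2 fell and TXNIP rose against DHT alone. The log2 fold change of ELL2 was -1.55, -2.04 and -2.01 for BIC, ENZ and APA (adjusted p 0.00359, 0.000296 and 0.00033), and that of TXNIP was 0.73, 0.61 and 0.83 (adjusted p 0.0476, 0.0483 and 0.0138). KLF15 also fell with APA, to 3.17 and 3.25 TPM (-0.90, adjusted p 0.00573). Of the 28 genes, 26 were not called with BIC, 26 with ENZ and 25 with APA, whereas the blocked fit called 2 higher and 4 lower with BIC, 3 higher and 4 lower with ENZ, and 2 higher and 5 lower with APA. Of all genes, 3.13%, 9.65% and 8.36% were called with BIC, ENZ and APA, and 13.3%, 29.2% and 27.3% with the block. These genes, and those called with the antagonists in the lists that follow, were picked after their values were seen.

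All 15 genes of the circadian clock list were tested. In DHT against VEH 2 rose, PER1 and BHLHE40, and 2 fell, DBP and CIART, while of all genes 10.3% were called, 3.63% higher and 6.64% lower. BHLHE40, a repressor of clock genes, went from 3.95 and 3.96 TPM to 7.25 and 7.68 TPM (log2 fold change 0.77, adjusted p 0.02). DBP, a clock output factor, went from 5.92 and 6.75 TPM to 2.59 and 4.21 TPM (-0.76, adjusted p 0.0406), and CIART, another repressor within the clock, from 8.48 and 9.03 TPM to 4.27 and 5.25 TPM (-0.76, adjusted p 0.00668). With antagonist plus DHT, CIART rose with all 3, by log2 fold changes of 0.68, 0.80 and 0.93 for BIC, ENZ and APA (adjusted p 0.0281, 0.00643 and 0.00288). BHLHE40 fell by -0.70 with ENZ (adjusted p 0.0346) and by -0.74 with APA (adjusted p 0.0285).

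Of 15 chaperones and co-chaperones of the receptor complex, 14 were tested and 2 rose with DHT, against 3.63% of all genes. HSPA4, an exchange factor for HSP70, went from 118.37 and 133.61 TPM to 174.71 and 179.1 TPM (log2 fold change 0.49, adjusted p 0.0379). CDC37, which brings kinases to HSP90, went from 152.66 and 169.49 TPM to 218.32 and 227.66 TPM (0.47, adjusted p 0.015). With antagonist plus DHT, CDC37 fell with all 3, by -0.50, -0.52 and -0.50 (adjusted p 0.0259, 0.0105 and 0.0132). HSPA4 fell with ENZ by a log2 fold change of -0.64 (adjusted p 0.0128) and with APA by -0.49 (adjusted p 0.043). AHSA1, an activator of HSP90, fell in the same groups by -0.41 and -0.38 (adjusted p 0.0269 and 0.0408). The median log2 fold change of the 14 genes with DHT was 0.146. The blocked fit called 4 of them higher and 2 lower with DHT, and against DHT alone 4 lower with BIC, 7 lower and 1 higher with ENZ, and 6 lower and 1 higher with APA. The shares of all genes called in these 4 blocked comparisons were 27.4%, 13.3%, 29.2% and 27.3%.

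Of 19 genes of ERK feedback and the immediate early response, which include DUSP1 and ERRFI1, 14 were tested. JUN, a subunit of the transcription factor AP-1, fell from 35.59 and 41.16 TPM in VEH to 20.12 and 21.53 TPM in DHT (log2 fold change -0.85, adjusted p 0.00136). The other 13 were not called, while of all genes 3.63% were called higher and 6.64% lower. JUN rose with ENZ plus DHT (0.44, adjusted p 0.0431). Blocked by replicate, the fit called 3 of the 14 lower with DHT, against 27.4% of all genes. With antagonist plus DHT it called 1 higher and 1 lower for BIC, and 2 higher and 2 lower for each of ENZ and APA. Of all genes, 13.3%, 29.2% and 27.3% were called with the block for BIC, ENZ and APA. All 12 receptor cofactors listed were tested and 0 were called in DHT against VEH by limma, against 10.3% of all genes. With the replicate block 3 cofactors were called lower, against 27.4% of all genes called in either direction. With each antagonist plus DHT, 0 cofactors were called. Of all genes, 3.13%, 9.65% and 8.36% were called with BIC, ENZ and APA. Replicates stood far apart for some cofactors in both ENZ.DHT and APA.DHT. EP300 was at 16.82 and 29.86 TPM in ENZ.DHT and at 16.03 and 33.2 TPM in APA.DHT. CREBBP was at 14.57 and 28.95 TPM and at 14.48 and 30.98 TPM in the same order. Replicates were close for others in these groups, as with CARM1 at 18.9 and 19.47 TPM and at 19.11 and 19.2 TPM. All 8 groups share 1 fit, so a wide spread in any group enters the SE of every comparison.

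The calls of ELL2, TXNIP and JUN in DHT against VEH held in every alternative run. Those of HSPA4 and BHLHE40 were lost when any 1 of the 4 libraries was left out, with an adjusted p up to 0.239 and 0.124. CDC37 was lost without VEH replicate 2 (adjusted p 0.111), DHT replicate 1 (0.0913) or DHT replicate 2 (0.0698), and KLF15 without VEH replicate 1 (0.175), VEH replicate 2 (0.0926) or DHT replicate 2 (0.207). DBP was lost without VEH replicate 1 (0.22), VEH replicate 2 (0.104) or DHT replicate 1, where its log2 fold change was -0.49 (0.251). CIART was lost without VEH replicate 2 (0.054) or DHT replicate 1 (0.0634). In a fit of DHT and VEH alone all 6 of these calls were lost, with an adjusted p of 0.0932 for HSPA4, 0.103 for CDC37, 0.116 for KLF15, 0.0599 for BHLHE40, 0.121 for DBP and 0.0716 for CIART. HSPA4 (0.0507) and DBP (0.0749) were also lost without the filter on low values, and DBP with median-ratio scaling (0.0607). Of the 20 calls of list genes given for antagonist plus DHT, 18 were lost in at least 1 alternative. The other 2 were those of ELL2 with ENZ and APA. Fits of the 2 compared groups alone lost 17 of the 20, and fits without the filter on low values lost 5. The replicate block, median-ratio scaling and a pseudocount of 0.1 each lost 0 of the 20. Leaving out DHT replicate 1 lost 15 of the 20 and leaving out DHT replicate 2 lost 16. Of the 4 calls with BIC, 4 were lost without BIC.DHT replicate 1 and 3 without BIC.DHT replicate 2. Of the 8 with ENZ, removing replicate 1 of ENZ.DHT lost 4 and removing replicate 2 lost 2, and of the 8 with APA, 3 were lost without either library of APA.DHT.

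Markers of other cell types also moved with DHT. The basal marker KRT14 went from 0.03 and 0.05 TPM in VEH to 1.59 and 1.68 TPM in DHT (log2 fold change 1.34). KRT14 reached 1 TPM in 2 libraries only, both of DHT. It passed the filter only through the group where it was high, so its test carries no weight. KRT5 stayed at or below 0.16 TPM and TP63 at or below 0.04 TPM in every library. The stromal marker COL1A1 went from 25.92 and 32.55 TPM to 11.44 and 15.55 TPM (-1.07, adjusted p 0.00357). Of the luminal markers, KRT18 rose (0.64, adjusted p 0.00528) and FOLH1 fell (-0.58, adjusted p 0.0217). The call of KRT18 was lost without VEH replicate 2 (0.0534) or DHT replicate 1 (0.0516), and that of FOLH1 without any 1 of the 4 libraries, with an adjusted p up to 0.128. The part of these markers in the response of the steroid targets was not tested.

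**Figure D4:**
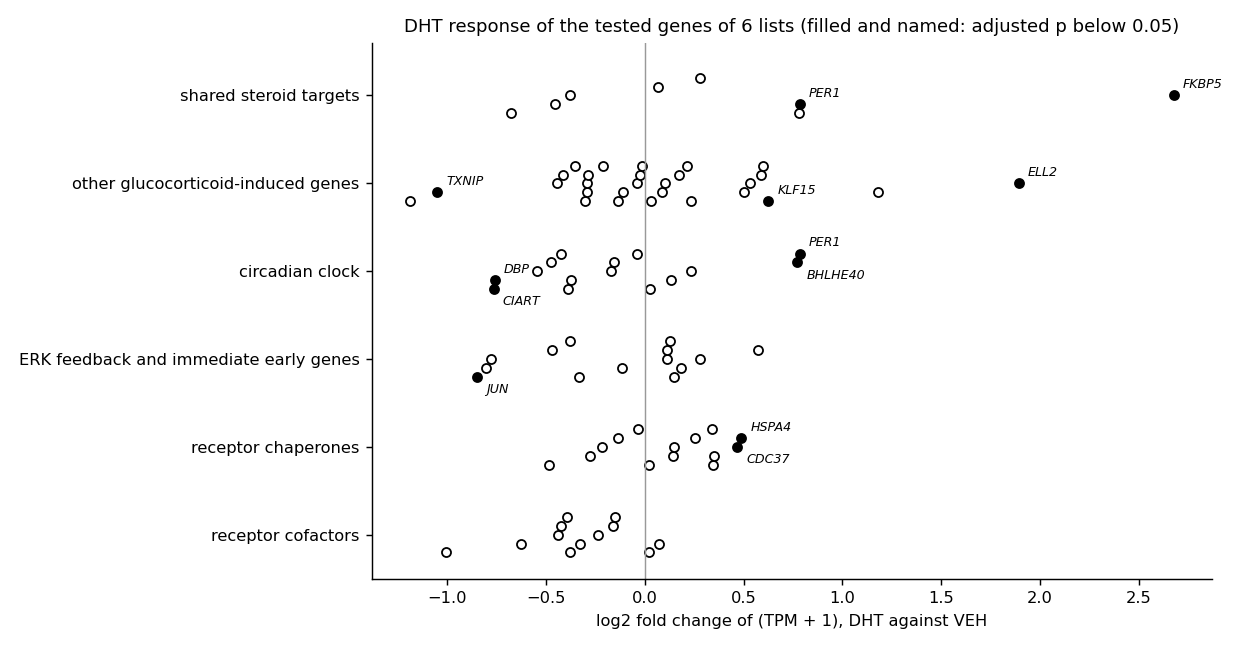
Log2 fold change of (TPM + 1) in DHT against VEH for the tested genes of 6 lists, 1 point per gene, filled and named where the adjusted p was below 0.05. FKBP5 at 2.68 and ELL2 at 1.90 lie farthest to the right, and TXNIP at -1.05 is the lowest called gene.

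The genes whose pattern over the 16 libraries was most like that of FKBP5, among genes with a mean of at least 5 TPM, were SORD, IGF1R and ACSL3. Pearson's r of log2(TPM + 1) was 0.99, 0.99 and 0.988, over libraries that share the 8 groups and of which the 2 with DHT alone stand apart. SORD, which encodes sorbitol dehydrogenase, ran from 198.48 to 811.26 TPM, the growth factor receptor gene IGF1R from 2.15 to 16.93 TPM, and ACSL3, an acyl-CoA synthetase gene, from 40.93 to 276.58 TPM. For NR3C1 the most alike were SNX24 (0.779), AC015871.3 (0.778) and C3orf18 (0.768), with all NR3C1 values at or below 0.26 TPM. Among the targets themselves, r was 0.796 for PER1 and ZBTB16, 0.708 for FKBP5 and ZBTB16, 0.674 for FKBP5 and PER1 and 0.72 for SGK1 and DUSP1. FKBP5 and DUSP1 had an r of -0.602. The 2 libraries with DHT alone held the highest values of FKBP5, PER1 and ZBTB16 and the lowest of DUSP1, and they weigh on these r values too.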

How the data were processed

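Per the labels, polyadenylated RNA was sequenced as stranded 125 bp read pairs. The submitters' processing notes name FastQC 0.11.9, Trim Galore 0.6.5, STAR 2.7.2b, RSEM 1.3.3 and GRCh38. The authors deposited TPM estimates per gene symbol, 1 column per library, with 0 columns of other samples. TPM is scaled to a fixed total, so a rise of abundant transcripts lowers all others, and RSEM divides reads that fit several genes by a model. Read depth is unknown from TPM, so no counting interval is given.

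The 16636 genes with a TPM of at least 1 in 2 or more libraries were analysed as log2(TPM + 1). Group means of all 8 groups were fitted with limma 3.58.1 in R 4.3.3 (trend option), without a replicate term, and 19 contrasts were tested. Genes with a Benjamini-Hochberg adjusted p below 0.05 within a contrast were called. No differential test for these libraries was found in the methods read, so this design was chosen here. The script was tested on simulated data. Replicate numbers from the labels were checked for pairing: deviations from the group means correlated above 0.1 in 28 of 28 pairs of groups (0.204 to 0.635, median 0.427), so the numbers were taken to pair the libraries and a fit with the number as a block was run.

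The genes and gene lists were chosen with earlier results of these data known. All 9 genes were named. From each other list, the called genes with the 3 highest and 3 lowest fold changes in DHT against VEH were named, with KLK3 as a check and the 3 genes most correlated with NR3C1 and with FKBP5. Results of 1 listed receptor gene are not reported here. Other settings were a pseudocount of 0.1, no filter, median-ratio scaling, the replicate block, only the groups compared, and each library left out. Gene positions and promoter windows are from RefSeq (GRCh38.p14); ZBTB16 was not among the windows. Figures were drawn with Python 3.11.15 and matplotlib 3.10.9.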

Additional observations from a re-analysis of the deposited data

Results flagged for a closer look

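The effect of DHT on FKBP5 differed between cells with and without an antagonist, by the test of the interaction itself. The difference on the log2 scale was -2.43 with BIC (SE 0.336, limma adjusted p 0.00614), -2.797 with ENZ (SE 0.336, adjusted p 0.0021) and -2.662 with APA (SE 0.336, adjusted p 0.00287). FKBP5 rose in both replicates with DHT alone. The 3 tests share the DHT and VEH libraries. With 2 libraries in each group, no search for single outlying libraries was made.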

How the results depend on the processing

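The FKBP5 calls in DHT against VEH, in the 3 comparisons of antagonist plus DHT with DHT and in the 3 interactions held in every alternative run. Among the 8 targets, 2 were called in DHT against VEH, in ENZ.DHT against DHT and in APA.DHT against DHT; each count was 1 with no filter on low values, 1 in fits of the compared groups alone and 4 with the replicate block. With median-ratio scaling PER1 with ENZ was lost and ZBTB16 in DHT against VEH, ZBTB16 with ENZ and PER1 with APA were gained, and a pseudocount of 0.1 gained PER1 with APA. Leaving out each library in turn gave 1 in every case for these 3 comparisons (lowest 1, highest 1). In BIC.DHT against DHT the count went from 1 to 2 with the block, and in the interaction of ENZ with DHT from 1 to 2. The block changed no other call of a target beyond those given above. The cause of these changes was not tested. Fits that leave libraries out also hold fewer libraries.

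Directions turned only for values that were not called. With libraries left out in turn, TSC22D3 ran from -0.50 to 0.64 in DHT against VEH, from -0.49 to 0.65 in BIC.DHT, from -0.47 to 0.67 in ENZ.DHT and from -0.65 to 0.49 in APA.DHT, each against DHT. SGK1 ran from -0.38 to 0.033 in ENZ.DHT and from -0.068 to 0.35 in APA.DHT against DHT, and KLF9 from -0.51 to 0.17 and from -0.33 to 0.32. FKBP5 ran from -0.42 to 0.19 in ENZ.DHT against ENZ.VEH, where median-ratio scaling gave 0.012, from -0.26 to 0.29 in APA.DHT against APA.VEH and from -0.20 to 0.41 in APA.DHT against ENZ.DHT. With 2 libraries in a group and no read depth in TPM, precision rests on the replicates alone.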
